A study of Mus musculus with 50 samples.

Results

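The CCT chaperonin subunits were the 8 genes *Tcp1*, *Cct2*, *Cct3*, *Cct4*, *Cct5*, *Cct6a*, *Cct7* and *Cct8*, taken by symbol from the 55385 genes listed in every RNA-seq file, and all 8 were found and passed the filter on low counts in every fit. RNA was measured in 28 libraries of mouse spinal motor neurons and of motor neurons made from embryonic stem cells, and 22 ATAC-seq libraries of these ages and culture times gave the accessible chromatin. The E10.5 libraries (3) held whole cells sorted from C57BL/6 HB9-GFP embryos, in which GFP marks motor neurons. The 2 libraries of E13.5, 3 of P4, 2 of P13, 3 of P21, 3 of P56 and 2 of mice aged 2 years held nuclear RNA from cords of C57BL/6 Chat-Cre;SUN1-GFP-3xMYC mice, so that the isolation changed together with age at the first step. Per the study's methods the thoracic cord was included at E10.5, beside the brachial and lumbar cord, but not for nuclear RNA. Chat-Cre tags the nuclei of all cholinergic neurons of the cord, other cholinergic classes included, and animals were pooled for a library. The cultured neurons carried the same transgenes, came from 1 stem cell line. Their nuclei were taken at DIV0 (2), DIV7 (2) and DIV28 (3), where DIV counts days in co-culture on cortical astrocytes and the study's methods describe purification from embryoid bodies and from co-cultures, so that the step from DIV0 also changes the setting in which the neurons were kept, and at DIV28 after growth in 1 µM tetrodotoxin (TTX), which blocks voltage-gated sodium channels (3). All nuclear groups shared Cre and the nuclear tag. Per the study's methods each tissue replicate combined the cords of several animals, and replicates were biological, so p-values measure the spread between such pools and between cultures of the 1 line.

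CCT, also called TRiC, is the ATP-driven chaperonin of the cytosol, a barrel of stacked rings in which each subunit gene fills its own fixed place. It encloses newly made proteins, above all tubulins and actins, and releases them folded, receiving many of them from prefoldin and working with phosducin-like proteins. *Tcp1* encodes the alpha subunit, *Cct2* beta, *Cct3* gamma, *Cct4* delta, *Cct5* epsilon, *Cct6a* zeta, *Cct7* eta and *Cct8* theta. Inherited mutations of *Cct4* in the rat and of *CCT5* in humans cause sensory neuropathies.

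The 8 genes lie on 8 different chromosomes. In GENCODE on GRCm38, *Cct2* spans chr10:117051001-117063814 on the minus strand, *Cct4* chr11:22990519-23003780 on the plus strand, *Cct7* chr6:85451514-85468475 on the plus strand and *Cct8* chr16:87483326-87495873 on the minus strand. *Tcp1* spans chr17:12915701-12925067, *Cct3* chr3:88297116-88321767 and *Cct6a* chr5:129786998-129846371, all on the plus strand, and *Cct5* spans chr15:31590800-31601804 on the minus strand. Promoter windows of 300 bases, 250 before and 50 after the RefSeq start, are shown for the genes at the ends of the range of change: *Tcp1* and *Cct5*, which fell most in tissue, *Cct3*, which fell least, and *Cct6a*, which differed most between tissue and culture. They are RefSeq sequences of GRCm38.p6, read on the strand of the gene, and lie at chr17:12916079-12916378 (plus), chr15:31601797-31602096 (minus), chr3:88296885-88297184 (plus) and chr5:129787106-129787405 (plus). Capitals mark each CCAAT (or ATTGG, its other strand) and each GC box, GGGCGG (or CCGCCC).
Tcp1: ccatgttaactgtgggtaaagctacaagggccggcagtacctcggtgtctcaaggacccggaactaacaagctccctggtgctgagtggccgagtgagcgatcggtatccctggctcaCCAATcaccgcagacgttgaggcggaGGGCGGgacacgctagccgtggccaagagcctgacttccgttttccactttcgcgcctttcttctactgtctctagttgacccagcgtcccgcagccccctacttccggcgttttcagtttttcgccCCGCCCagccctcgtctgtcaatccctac
Cct5: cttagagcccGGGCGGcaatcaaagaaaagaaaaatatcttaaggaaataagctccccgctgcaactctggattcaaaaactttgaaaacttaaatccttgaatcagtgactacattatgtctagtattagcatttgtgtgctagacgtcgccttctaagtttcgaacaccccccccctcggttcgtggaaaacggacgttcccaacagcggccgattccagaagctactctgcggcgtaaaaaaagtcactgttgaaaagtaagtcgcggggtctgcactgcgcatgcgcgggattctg
Cct3: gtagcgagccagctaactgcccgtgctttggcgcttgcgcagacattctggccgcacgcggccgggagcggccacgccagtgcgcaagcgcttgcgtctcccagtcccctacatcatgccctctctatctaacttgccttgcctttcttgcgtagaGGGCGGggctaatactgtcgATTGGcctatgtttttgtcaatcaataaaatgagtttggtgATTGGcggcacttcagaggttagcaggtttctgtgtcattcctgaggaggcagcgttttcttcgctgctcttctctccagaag
Cct6a: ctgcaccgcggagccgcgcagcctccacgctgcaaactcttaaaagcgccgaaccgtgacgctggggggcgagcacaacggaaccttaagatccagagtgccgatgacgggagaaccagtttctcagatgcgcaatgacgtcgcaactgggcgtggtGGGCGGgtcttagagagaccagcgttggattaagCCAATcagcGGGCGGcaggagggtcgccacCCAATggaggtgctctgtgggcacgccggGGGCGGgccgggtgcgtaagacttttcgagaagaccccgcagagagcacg

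Windows were found for 7 of the 8 subunits, all but *Cct4*, and 7 of 7 held at least 1 GC box, against 35.9% of 27025 promoters of the same length. A CCAAT box was present in 4 of the 7, *Tcp1*, *Cct3*, *Cct6a* and *Cct7*, against 37.9% of promoters. *Cct7* held 3 CCAAT boxes and *Cct3* and *Cct6a* 2 each, where 3.56% of promoters held 3 or more and 12.2% held 2 or more. The ETS letters CCGGAAG were in 3 of the 7 (*Tcp1*, *Cct2* and *Cct8*; 9.12% of promoters), and no window held a TATA box, TATAAA (14.2% of promoters), or an E-box, CACGTG (7.24%). Of the letters bound by heat shock factors, GAANNTTC was in none of the 7 (7.95% of promoters) and TTCNNGAA in 2, *Cct5* and *Cct6a* (8.4%). GC content ran from 47.3% in *Cct5* to 67.7% in *Cct7*, beside a median of 52.7%. Motifs were searched on both strands and overlaps between different motifs were allowed. The windows of *Tcp1* and *Cct5*, the genes with the largest falls in tissue, differed in that *Tcp1* had a CCAAT box and *Cct5* none.

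Before the results, 1 library needs to be named. The RNA library titled DIV0 replicate 3 is named for DIV28 in its deposited table, and was taken as DIV28 replicate 3. Its 12 cell cycle genes summed to 145.9 normalised counts (counts scaled by median-of-ratios factors), between the 137.9 and 203.8 of the other DIV28 libraries and below the 2555 and 2113 of the DIV0 libraries. Its 7 motor neuron markers summed to 5360, nearer to the 6549 and 5460 of DIV0 than to the 8244 and 9272 of DIV28. Its 8 CCT subunits summed to 2583, below the 2986 and 2846 of DIV0 and the 3597 and 3901 of DIV28, so counts that rest on it are also given with the library as titled and without it. All 7 motor neuron markers had counts in every group. Total counts ran from 2704682 to 21823500 per library, and the lowest expected count of a subunit in any library was 66, for *Cct4* at P21.

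Summed over the 8 subunits, the normalised count was 12530 ± 1048 (SD, n = 3) at E10.5 and 10910 ± 1159 (n = 2) at E13.5, then 2281 ± 196 (n = 3) at P4, 2398 ± 212 (n = 2) at P13, 1376 ± 78.8 (n = 3) at P21, 1403 ± 129 (n = 3) at P56 and 1535 ± 71.3 (n = 2) at 2 years. In culture the sum was 2916 ± 99.4 (n = 2) at DIV0, 3534 ± 749 (n = 2) at DIV7, 3361 ± 690 (n = 3) at DIV28 and 4452 ± 977 (n = 3) with TTX. By normalised count the groups thus fell into 4 levels, with embryonic tissue at the top, all cultures next, P4 and P13 below them, and P21, P56 and 2 years lowest. Between these levels the libraries did not overlap, and within each level neighbours in the order of means had overlapping ranges. The lowest culture library was at 2583 and the highest P13 library at 2548. By mean summed TPM, which corrects for length within a library, DIV0 (158.9) and DIV28 (155.1) lay below P4 (193.4) and P13 (206.4). The place of the cultures beside P4 and P13 thus rests on the scale. The E13.5 sum was 7.93 times that of P21, and the DIV28 sum was 1.15 times that of DIV0. In bulk RNA, fewer cells expressing a gene and less RNA per cell cannot be told apart.

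**Figure D1:**
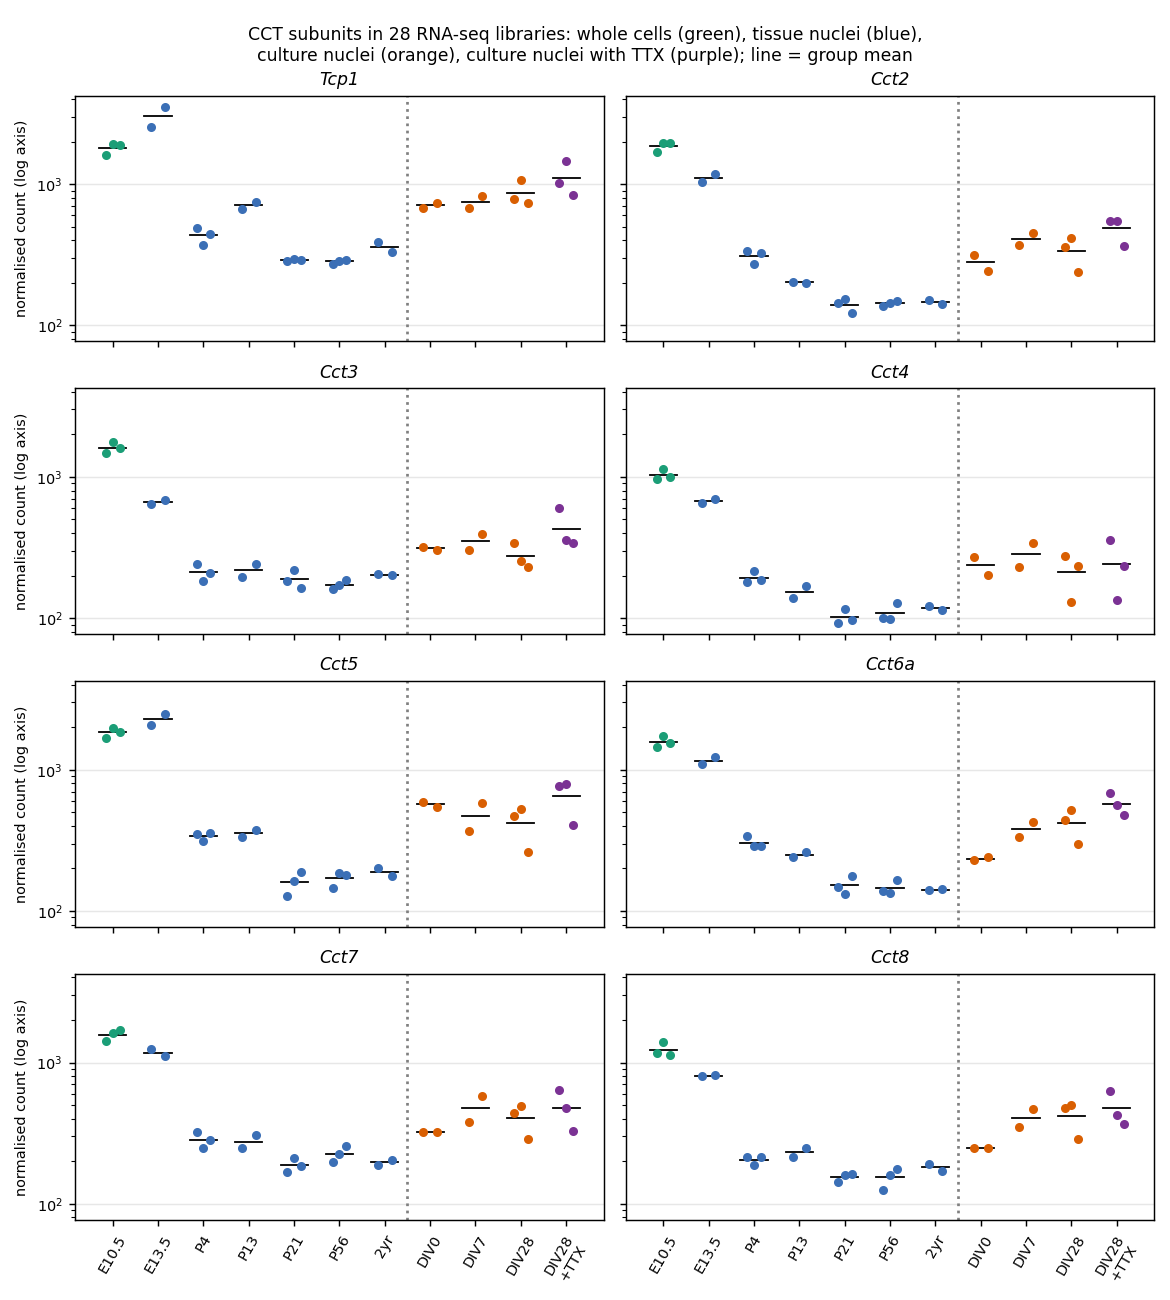
Normalised count of each CCT subunit on a log axis in every RNA-seq library, 1 point per library, with a line at the group mean; whole cells are green, tissue nuclei blue, culture nuclei orange and culture nuclei with TTX purple. In all 8 panels the E13.5 libraries lie above every P4 library and every P21 library, as for 39.9% and 42.3% of the 15030 genes tested, and the DIV28 libraries lie above those of P21.

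By normalised count *Tcp1* and *Cct5* differed from the other subunits in showing no drop between E10.5 and E13.5. By mean TPM *Cct5* was at 265.0 at E10.5 and 202.8 at E13.5, and *Tcp1* at 213.8 and 262.6, with overlapping ranges for both. *Tcp1* gave 1607, 1915 and 1888 normalised counts at E10.5, 2549 and 3524 at E13.5, 486.9, 370 and 440.5 at P4, 670.8 and 749.2 at P13 and 286.7, 292.5 and 291.5 at P21. *Cct5* gave 1672, 1983 and 1863 at E10.5, 2085 and 2499 at E13.5, 351.1, 312.2 and 356.9 at P4, 335.2 and 374.2 at P13 and 127.3, 161.7 and 189.3 at P21. Every E13.5 library of both genes lay above every library of any other group, and every P21 library below every P13 library. *Tcp1* also was higher in both P13 libraries than in any P4 library, which *Cct5* was not. How many of all genes had such orders of libraries was not counted, so they are not read as a result about these genes.

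The other 6 subunits were highest at E10.5, with every E10.5 library above every E13.5 library, as for 30.7% of the 15030 genes tested, in a step that also changes whole cells to nuclei. *Cct2* gave 1684, 1943 and 1951 at E10.5, 1037 and 1170 at E13.5, 334.3, 269.6 and 324.5 at P4, 203.4 and 199.6 at P13 and 142.7, 153.3 and 122.9 at P21. *Cct4* gave 965.2, 1146 and 1004 at E10.5, 649.2 and 698.4 at E13.5, 179.5, 213.9 and 187.2 at P4, 139 and 169 at P13 and 92.3, 116.7 and 96.7 at P21. Both stepped down at each of these ages without overlap between neighbours. From E13.5 to P4 this held for 39.9% of all genes. For the later steps the share of all genes was not counted, so they are not read as a result about the subunits. *Cct6a* gave 1442, 1735 and 1545 at E10.5, 1090 and 1233 at E13.5, 337.7, 287.1 and 289.5 at P4, 240.9 and 260.9 at P13 and 146.9, 130.8 and 178.2 at P21, and stepped down in the same way.

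*Cct7* gave 1412, 1612 and 1686 at E10.5, 1243 and 1104 at E13.5, 319.7, 250 and 280.8 at P4, 246.6 and 305.4 at P13 and 167.8, 210.9 and 186.5 at P21. *Cct8* gave 1161, 1401 and 1137 at E10.5, 800.6 and 815.5 at E13.5, 214.3, 188.8 and 213.4 at P4, 215.7 and 248.8 at P13 and 142.7, 160.3 and 161.6 at P21. For *Cct7* the libraries of P4 and P13 overlapped, and for *Cct8* both P13 libraries lay just above those of P4, an order whose share over all genes was not counted. *Cct3* gave 1472, 1762 and 1596 at E10.5, 641.8 and 690.2 at E13.5, 242.3, 184.5 and 209.6 at P4, 196.7 and 240.5 at P13 and 184.6, 220.7 and 163 at P21. *Cct3* was the subunit whose P4, P13 and P21 libraries overlapped throughout. Past P21 all 8 subunits stayed low, between 99.1 (*Cct4*) and 291.6 (*Tcp1*) at P56 and between 113.9 (*Cct4*) and 387.2 (*Tcp1*) at 2 years.

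Changes between ages were tested with edgeR's quasi-likelihood test on all 18 tissue libraries, and a gene was called where the unadjusted p was under 0.001 and the change at least 2-fold; adjusted p-values are Benjamini-Hochberg values over all genes of the fit. From E10.5 to E13.5, 1 of 8 subunits was called lower, *Cct3*, with a log2 fold change of -1.42 ± 0.16 (SE; adjusted p = 3.6e-07), where 19.4% of the 15030 genes tested were called lower. *Cct2* was at -0.90, *Tcp1* at 0.60 and *Cct5* at 0.17, none called, and the median of the 8 was -0.67 beside 0.13 for all genes. Whole cells and nuclei, and the cord segments taken, cannot be told apart from age in this step. The 13 mitochondrially encoded mRNAs, which lie outside the nucleus, summed to between 24560 and 28590 at E10.5 and between 4799 and 5395 at E13.5, and their part in the subunits' changes was not tested. Without E13.5 replicate 2, the count was 2, with *Cct2* at -1.01.

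The fall to postnatal tissue took in the whole chaperonin. From E13.5 to P4, 8 of 8 subunits were called lower, beside 19% of all genes, with a median log2 fold change of -1.80 (0.12 for all genes). *Tcp1* fell by 2.66 ± 0.15 (SE; adjusted p = 4.9e-10 in edgeR's test), *Cct5* stood at -2.60 ± 0.16, and the smallest change was that of *Cct3*, at -1.50 ± 0.15. From E13.5 to P21, 8 of 8 were called lower and none higher, where 26.3% of all genes were called lower and 29.8% higher. *Cct5* fell by 3.69 ± 0.17 on the log2 scale (13-fold; adjusted p = 5.3e-12 in edgeR's test), and the others stood at -3.24 (*Tcp1*), -2.83 (*Cct2*), -2.78 (*Cct6a*), -2.57 (*Cct4*), -2.49 (*Cct7*), -2.23 (*Cct8*) and -1.66 (*Cct3*, 3.17-fold). The log2 change to P4 made up between 59.6% (*Cct2*) and 90.3% (*Cct3*) of that to P21. The study named the fall of CCT genes on these libraries, so the count is not independent evidence of its direction.

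Blood and vessel transcripts were high in the same E13.5 libraries. The 7 erythroid markers summed to between 16300 and 18090 at E13.5, 0 and 5.35 at E10.5, 1138 and 1541 at P4 (*Hbb-y*, the embryonic globin, at 0) and 202.8 and 385.3 at P21. The 7 endothelial markers summed to between 13430 and 25500 at E13.5, 5678 and 7688 at P4 and 35.0 and 74.5 at P21. The 12 cell cycle genes summed to between 6716 and 11880 at E13.5, 1153 and 1402 at P4 and 76.9 and 110.5 at P21. The 7 pericyte and fibroblast markers summed to between 2689 and 3553 at E13.5, 2695 and 4363 at P4 and 62.9 and 386.8 at P21. Per the study's methods, nuclei of E13.5 and P4 were less pure than later ones, with some contamination from blood vessels. The part of these transcripts in the subunits' fall was not tested. Tissue starting at P4 was compared as well, a choice made after seeing the data, but P4 is not free of vessel transcripts.

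From P4 to P21, 3 of 8 subunits were called lower, beside 11.2% of all genes. *Cct2* fell by 1.14 ± 0.13 (SE; adjusted p = 3.1e-06 in edgeR's test), *Cct5* by 1.09 ± 0.15 and *Cct6a* by 1.00 ± 0.14. The other 5 had log2 values of -0.92 (*Cct4*), -0.59 (*Cct7*), -0.57 (*Tcp1*), -0.41 (*Cct8*) and -0.16 (*Cct3*), none of them called. All 8 estimates were negative and nearer to 0 than those from E13.5, and for *Cct3* the libraries of P4 and P21 overlapped.

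Within the postnatal weeks the change was uneven. From P4 to P13, 0 of 8 subunits were called, beside 13.3% of genes called in either direction by edgeR; 2 had an unadjusted p under 0.05, *Tcp1*, at a log2 change of 0.80 ± 0.15, and *Cct2*, at -0.53 ± 0.14, and DESeq2 called none either. From P13 to P21, 2 of 8 were called lower, beside 5.8% of all genes, *Tcp1*, which fell by 1.38 ± 0.16, and *Cct5*, which fell by 1.24 ± 0.16, and the remaining 6 had values from -0.81 (*Cct6a*) to -0.29 (*Cct3*). *Tcp1* and *Cct8* were the subunits whose P13 libraries lay above all those of P4 and of P21, *Tcp1* by the wider margin. How many of all genes had this order was not counted. Oligodendrocyte markers were highest at the same age, the 7 of them summing to between 1789 and 2413 at P4, 10410 and 10470 at P13 and 5940 and 8006 at P21, and the endothelial sum was at 352.1 and 501.3 in the P13 libraries. The part of either in the subunits' changes was not tested.

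After P21 no subunit was called by edgeR or by DESeq2. From P21 to P56, 0 of 8 were called, beside 0.173% of all genes in either direction, with values between -0.14 (*Cct3*) and 0.25 (*Cct7*) and none at an unadjusted p under 0.05. From P56 to 2 years, 0 of 8 were called, beside 0.685% of all genes, with 1 at an unadjusted p under 0.05, *Tcp1*, at 0.41 ± 0.16 (adjusted p = 0.28 in edgeR's test). The standard errors of these values ran from 0.14 to 0.17.

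In culture the subunits began lower than in E13.5 tissue, and none was called in either direction over time. Mean summed TPM was less even over these times. It was 158.9 ± 19.8 (SD, n = 2) at DIV0, 362.7 ± 75.2 (n = 2) at DIV7 and 155.1 ± 63.9 (n = 3) at DIV28. These TPM values were not tested. *Tcp1* gave 680.9 and 738.5 normalised counts at DIV0, 673.3 and 829.2 at DIV7 and 786.8, 1065 and 738.8 at DIV28, the last being the library titled DIV0 replicate 3. *Cct5* gave 594.6 and 542.8 at DIV0, 369.5 and 577.9 at DIV7 and 474, 527.5 and 262.6 at DIV28. *Cct6a* gave 230 and 240.1 at DIV0, 332 and 423.5 at DIV7 and 443.8, 521 and 299 at DIV28. *Tcp1* and *Cct6a* had no DIV28 library below their DIV0 libraries, while *Cct5* had no DIV28 library above its own. For *Tcp1* the nearest values were 738.8 in the mistitled library and 738.5 at DIV0. The share of all genes with such a separation was not counted, so it is not read as a result about the subunits.

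*Cct8* gave 249.6 and 249.2 at DIV0 and 475.1, 498.1 and 289.5 at DIV28. *Cct2* gave 314.9 and 243.1 at DIV0 and 358.1, 417.6 and 239.2 at DIV28, and *Cct7* gave 324.1 and 324.2, then 441.5, 490 and 288.8. In both genes the third DIV28 library lay lowest and below DIV0. *Cct3* gave 320.2 and 304.3 at DIV0 and 341.8, 252.3 and 231.9 at DIV28. *Cct4* gave 271.8 and 203.4 at DIV0 and 275.8, 129.8 and 233.4 at DIV28, with the low value in replicate 2, the deepest library of the series.

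Of the 8 subunits, 0 were called from DIV0 to DIV7 (11.2% of the 12890 genes tested were called in either direction), 0 from DIV7 to DIV28 (7.7%) and 0 from DIV0 to DIV28 (19%), by edgeR and by DESeq2, and each of the last 2 counts was also 0 with the mistitled library as DIV0 and without it. From DIV0 to DIV28 the log2 changes were 0.87 ± 0.29 for *Cct6a* (SE; adjusted p = 0.032 in edgeR's test), 0.79 ± 0.32 for *Cct8*, 0.36 for *Cct7*, 0.31 for *Cct2* and *Tcp1*, -0.14 for *Cct4*, -0.15 for *Cct3* and -0.40 ± 0.36 for *Cct5*, and 2 had an unadjusted p under 0.05. From DIV0 to DIV7 1 subunit, *Cct6a*, had an unadjusted p under 0.05, and from DIV7 to DIV28 none did. With the replicate number as a block, 1 of 8 was called from DIV0 to DIV28, *Cct6a*, at 1.03 ± 0.21 (adjusted p = 0.0025). With the library as titled and without it *Cct6a* was at 0.89 and 1.07. The cell cycle sum lay between 2113 and 2555 at DIV0 and between 137.9 and 203.8 at DIV28, and its part was not tested.

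**Figure D2:**
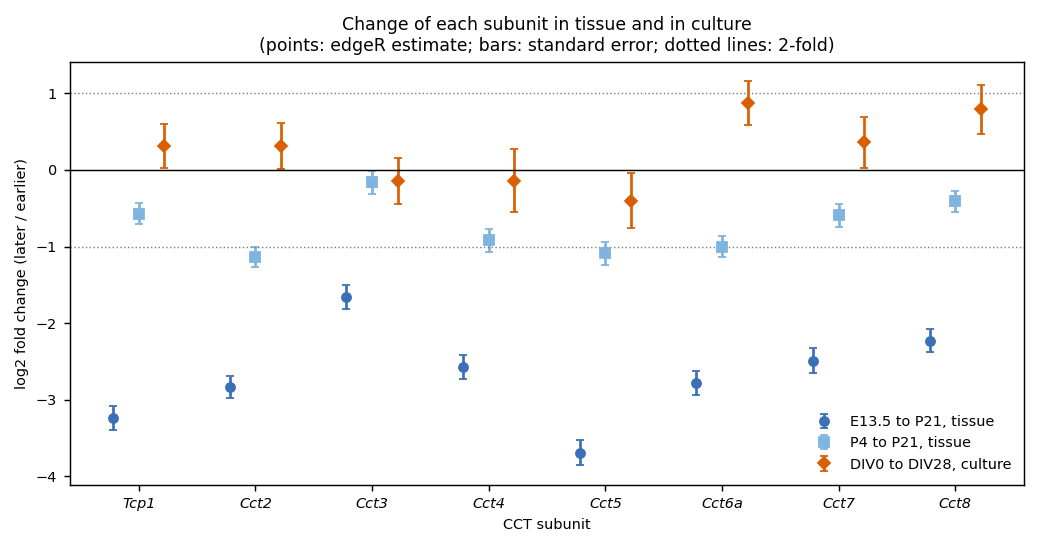
Log2 fold change of each CCT subunit from E13.5 to P21 and from P4 to P21 in tissue and from DIV0 to DIV28 in culture; points are edgeR estimates, bars standard errors and dotted lines 2-fold. The E13.5 to P21 points lie between -3.69 and -1.66, the P4 to P21 points between -1.14 and -0.16, and the culture points between -0.40 and 0.87.

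Silencing activity through the culture gave higher means for every subunit, without a call. With TTX *Cct3* gave 597.8, 355.6 and 339.5 normalised counts against 341.8, 252.3 and 231.9 without, *Cct5* 771.8, 789.9 and 405.1 against 474, 527.5 and 262.6, and *Cct2* 543.7, 551 and 367.2 against 358.1, 417.6 and 239.2. In each replicate pair the TTX library was higher for these 3 genes and for *Tcp1*, *Cct4* and *Cct6a*, and in 2 of 3 pairs for *Cct7* and *Cct8*. For *Cct4* the log2 difference was 0.05 in pair 2 and 0.01 in pair 3. The share of all genes that were higher in every pair was not counted, so the pairs are not read as a result about the subunits. Over all replicates the groups overlapped for *Cct3*, *Cct5* and *Cct2*. Of the 8 subunits 0 were called, beside 0.683% of all genes, with log2 changes from 0.15 (*Cct8*) to 0.63 ± 0.27 (*Cct3*; adjusted p = 0.57 in edgeR's test), 1 at an unadjusted p under 0.05, and a median of 0.38 beside 0.01 for all genes. The standard errors ran from 0.25 to 0.37. These values are from the fit without pairs. DESeq2 called 0, as did edgeR's fit with the pair as a block, in which standard errors were smaller. With the block *Cct5* was at 0.62 ± 0.18 (adjusted p = 0.14 in edgeR's test), *Cct3* at 0.61 ± 0.21 (0.22) and *Cct2* at 0.51 ± 0.17 (0.2). The smallest change with the block was that of *Cct4*, at 0.15 ± 0.31 (0.89). Without the mistitled library the count was 0 and the log2 changes ran from -0.063 (*Cct8*) to 0.51 (*Cct3*). *Cct5* was then at 0.37 ± 0.32 (adjusted p = 0.95 in edgeR's test) in place of 0.62 ± 0.33 (adjusted p = 0.73). With it as titled the count was 0 and *Cct5* was at 0.38 ± 0.43.

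Tissue and culture were compared in 1 fit of the 25 libraries without TTX. DIV0 neurons held less of every subunit than E13.5 tissue: 8 of 8 were called lower, beside 24.3% of the 15521 genes tested, with log2 differences from -1.12 ± 0.21 (*Cct3*; adjusted p = 7.5e-05) to -2.33 ± 0.23 (*Cct6a*; adjusted p = 2.5e-08), a median of -1.94 and -0.17 for all genes. With P4 in place of E13.5, a choice made after seeing the data, 0 of 8 were called, beside 28% of genes in either direction. DIV0 then lay above P4 for 6 subunits, from 0.21 (*Cct7*) to 0.76 (*Cct5*), and below it for *Cct2* (-0.13) and *Cct6a* (-0.36); 3 of these 8 had an adjusted p under 0.05 in edgeR's test, *Tcp1* (0.73), *Cct5* and *Cct3* (0.57). The direction of this comparison thus rests on which tissue age is set beside DIV0.

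At the late end the order was the other way round, with DIV28 above P21. By normalised count every DIV28 library lay above every P21 library for 8 of 8 subunits, as for 25.6% of the 15521 genes tested. By summed TPM the groups overlapped, with a range from 93.3 to 124.2 at P21 and from 91.4 to 219.2 at DIV28. Mean TPM was lower at DIV28 than at P21 for *Cct2*, *Cct3* and *Cct4* and higher for the other subunits. Of 8 subunits 7 were called higher at DIV28, beside 13.3% of all genes, with *Tcp1* at 1.63 ± 0.17 (SE; adjusted p = 8.9e-08 in edgeR's test), *Cct6a* at 1.53, *Cct8* at 1.50, *Cct5* at 1.46, *Cct2* at 1.34, *Cct7* at 1.17 and *Cct4* at 1.10 ± 0.23. *Cct3* was at 0.59 ± 0.17 (adjusted p = 0.0063), short of 2-fold. With the library as titled and without it 7 were called, and against P56, a choice made after seeing the data, 5 (13.6% of all genes), *Cct4* (0.98) and *Cct7* (0.90) falling short. Without DIV28 replicate 1 the count was 6, with *Cct4* at 0.87. The 7 oligodendrocyte markers summed to between 5940 and 8006 at P21 and between 62.0 and 73.7 at DIV28, and 7 of 7 were called lower at DIV28 (median -7.33). The 7 astrocyte markers summed to between 1008 and 1407 at P21 and between 437.7 and 544.6 at DIV28. The part of either in the subunits' differences was not tested.

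The change in tissue differed from that in culture for every subunit. The log2 change from E13.5 to P21 minus that from DIV0 to DIV28 was called in 8 of 8, all negative, beside 24.2% of all genes called lower. It was -3.86 ± 0.30 for *Cct6a* (SE; adjusted p = 6.7e-10 in edgeR's test), -3.76 ± 0.27 for *Tcp1*, -3.50 ± 0.35 for *Cct5*, -3.34 for *Cct2*, -3.22 for *Cct8*, -3.05 for *Cct7*, -2.63 for *Cct4* and -1.71 ± 0.27 for *Cct3* (adjusted p = 1.1e-05). With the library as titled and without it the count was 8, with values from -4.10 to -2.02 and from -4.15 to -1.91. With P4 as the start of the tissue series, chosen after seeing the data, 3 of 8 were called, beside 16.9% of all genes, *Cct6a* (-1.89 ± 0.28), *Cct2* (-1.47 ± 0.27) and *Cct8* (-1.21 ± 0.29), and *Cct3* was at -0.019. The 13 mitochondrially encoded mRNAs summed to between 4799 and 5395 at E13.5 and between 885.4 and 2393 at P21. In culture they summed to between 359.4 and 383.8 at DIV0 and between 2141 and 3190 at DIV28. The part of these mRNAs, or of the blood and vessel transcripts of E13.5, in the subunits' differences was not tested.

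Levels can be set beside each other between subunits on the TPM scale, which corrects for length within a library. Were all 8 equal, each would take 12.5% of their summed TPM. At E10.5 the highest share was that of *Cct6a*, 17.1% ± 0.41 (SD, n = 3), with *Cct3* at 15.7% ± 0.25, and *Tcp1* took 11.7% ± 0.65. From E13.5 on, *Tcp1* led in all but 1 library, with 28.3% ± 4.93 (n = 2) at E13.5, 22.3% ± 2.69 (n = 3) at P21 and 29.7% ± 4.47 (n = 3) at DIV28. *Cct5* held 22.1% ± 0.18 at E13.5 and 21.9% ± 0.80 at DIV0 (n = 2 each), and 12.5% ± 1.91 at P21 and 11.4% ± 1.22 at DIV28 (n = 3 each), so its share was lower at the late end in tissue and in culture alike. *Cct3* took 6.02% ± 0.68 at E13.5 and 9.39% ± 1.67 at P21.

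Summed TPM was spread unevenly to a degree that varied by library. The highest subunit exceeded the lowest by between 2.00 and 2.48 times at E10.5, between 4.67 and 6.43 times at E13.5 and between 1.87 and 3.19 times at P21. In DIV28 it ran from 3.31 to 11.6 times and with TTX from 3.47 to 15.3 times, the upper ends being the replicate 2 libraries, where *Cct4* took 2.69% and 2.32%.

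**Figure D3:**
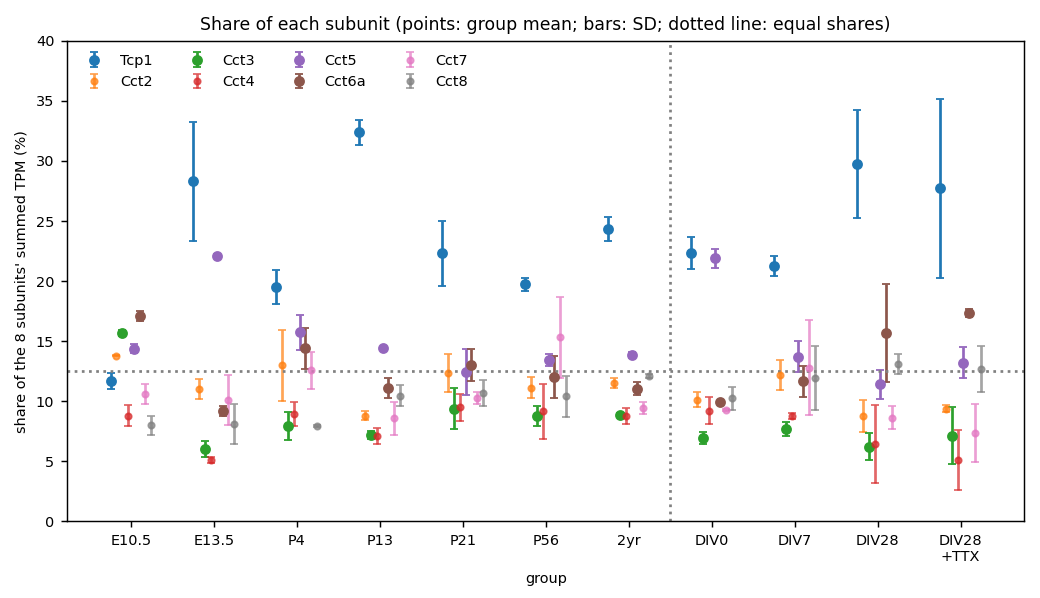
Share of each CCT subunit in the summed TPM of the 8, in percent, by group; points are group means, bars SDs and the dotted line the 12.5% of equal shares. *Tcp1* is near 11.7% at E10.5 and has the highest group mean in every other group, and *Cct5* stands at 22.1% at E13.5 and 21.9% at DIV0.

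Over the 28 libraries the log2 levels of any 2 subunits correlated with r from 0.833 (*Tcp1* and *Cct3*) to 0.98, with a median of 0.941 over the 28 pairs. Over the 10 culture libraries the median r was 0.606 and the lowest -0.518, between *Tcp1* and *Cct4*. These describe libraries that share age, isolation and scaling. Of 12359 genes tested in both systems, those whose means over the 11 groups were most like the mean of the 8 subunits were *Arpc5* (r = 0.993), *Prdx2* (0.992), *Cpsf2* (0.989), *Gabarap* (0.989), *Pabpc1* (0.986), *Tmed9* (0.985), *Nme1* (0.983), *Dnmt1* (0.983), *Wbp11* (0.983) and *Etf1* (0.982). The subunits themselves had r from 0.95 (*Tcp1*) to 0.993 (*Cct7*) with that mean, of which they are part.

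Of the genes that work with CCT, prefoldin and the actins were called lower throughout from E13.5 to P21, and the other lists in part, where 26.3% of all genes were called lower and 29.8% higher. All 6 tested subunits of prefoldin, which hands over unfolded actin and tubulin, were called lower, *Pfdn5* the most at -4.08 ± 0.21 (adjusted p = 2.6e-11 in edgeR's test). Of 4 cofactors that bind CCT, 3 were called lower, *Pdcd5* the most (-3.83). Of the proteins that CCT folds, both cytoplasmic actins were called lower, *Actb* the more (-5.01), and of 12 tubulins 10 were lower, *Tubb2b* the most (-6.84; *Tubb3* -2.03), and 1 higher, *Tuba4a* (2.08). Of 6 tubulin folding cofactors, which act after CCT, 2 were lower, *Tbca* the most (-3.48), and 1 higher, *Tbce* (1.68).

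Both genes of the mitochondrial chaperonin, the relative of CCT in mitochondria, were called lower, *Hspe1* (-3.01) and *Hspd1* (-1.92). Of 12 HSP70 and HSP90 chaperones 7 were lower, *Hsp90ab1* the most (-3.74), and of 8 co-chaperones 6, *Cdc37* the most (-2.80). Of 32 proteasome genes 26 were lower and none higher. Of the 2 heat shock factors *Hsf1* was called higher (1.12 ± 0.19) and *Hsf2* was not called (0.36). Of the chaperonin-like genes, which assemble the BBSome of cilia, 2 of 3 tested were called higher, *Bbs12* the most (2.2). *Cct6b*, the testis form of the zeta subunit, had at most 6.46 normalised counts in any library and was not tested.

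From DIV0 to DIV28 no gene of these lists was called lower, where 19% of the 12890 genes tested were called in either direction. Prefoldin, the CCT cofactors, the actins and the tubulin cofactors had 0 calls, with *Actb* at -0.19. For lists of 2 to 6 genes 0 calls lie near that share and are not read as a result. Tubulins had 4 higher calls of 12, *Tuba4a* the most (6.15 ± 0.76; *Tubb3* 2.40, not called), HSP70 and HSP90 chaperones 2 of 10, *Hspa2* the most (3.19), the co-chaperones 1 of 8, *Bag3* (2.98), the mitochondrial chaperonin 1 of 2, *Hspd1* (1.70), and the proteasome 1 of 31.

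**Figure D4:**
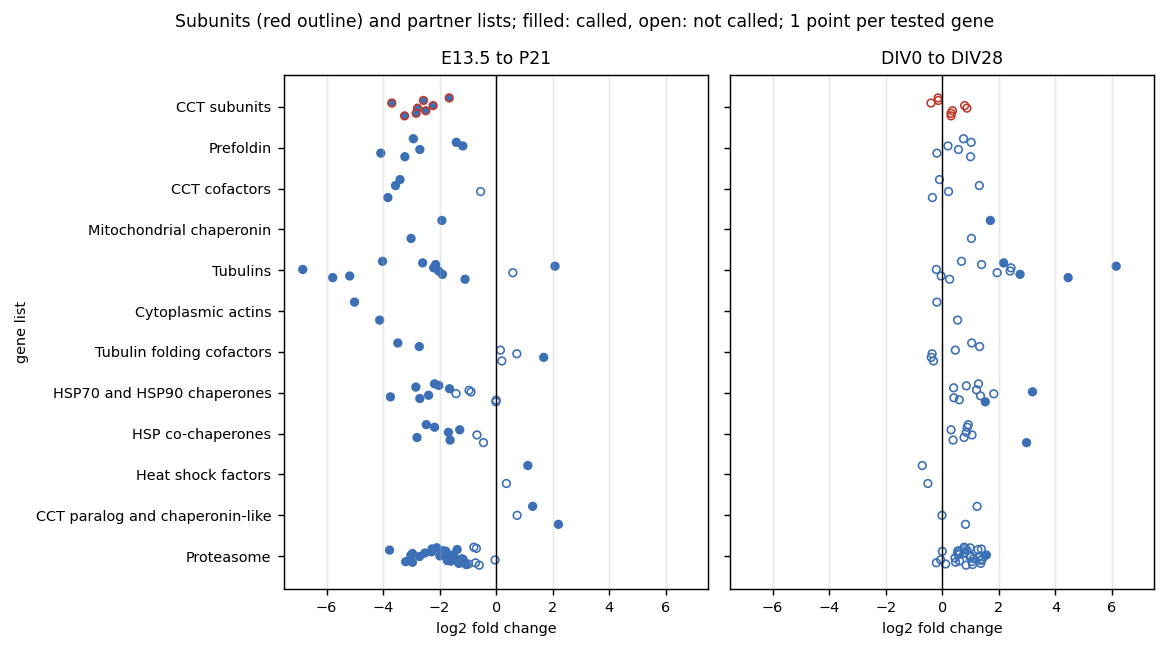
Log2 fold change of each tested gene of the CCT subunits (red outline) and of the partner lists, from E13.5 to P21 on the left and from DIV0 to DIV28 on the right, with called genes filled and others open. On the left all 8 subunits and all 6 prefoldin genes are filled and below 0; on the right both lists have 0 filled points.

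A peak lay near the start site in every library for all subunits but *Cct5*. Of each peak region only the strongest summit was kept. An ATAC peak with this summit within 500 bp of the start site was found in 171 of 176 pairs of subunit and library, for 7 subunits in all 22 libraries, where between 72.0% and 75.2% of 15508 start sites had one. The fold enrichment that the authors' peak caller gave, a ratio to background within the library, had a median over libraries from 10.53 (*Cct5*) to 16.45 (*Tcp1*), and for *Tcp1* the peak lay at a median percentile of 99.1 among all peaks of a library. Summits lay at a median of -130 bp from the start for *Tcp1*, -168 bp for *Cct6a*, -133.5 bp for *Cct3* and 35 bp for *Cct2*. In *Tcp1*, *Cct3* and *Cct6a* the CCAAT boxes of the printed windows also lie upstream of the start.

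By fold enrichment the peaks were highest at E13.5, and by rank their medians in tissue nuclei lay between percentiles 96.0 and 97.3. The median fold enrichment over the subunits was 7.67 at E10.5, 20.2 at E13.5, 11.8 at P4, 12.7 at P21 and 13.6 at P56, and 15.8 at DIV0, 13.4 at DIV28 and 12.1 with TTX. Fold enrichment differed between libraries as a whole, and ranked among all peaks of its library the median subunit lay at percentile 96.0 at E13.5 and 97.3 at P21, and at 91.2 in E10.5 whole cells and 93.5 at DIV0. These medians cover the peaks found, 16 at E13.5 and 14 at P21, where *Cct5*, the subunit of lowest median percentile, is missing. They are thus not like for like. With 2 libraries a group and unknown read numbers these are given without a test. *Cct5* differed from the others in where its strongest summit lay. It was within 500 bp in 17 libraries but not in both P21 libraries, P56 replicate 2 and both 2-year libraries. In those 5 libraries the strongest summit lay between 628 and 667 bp upstream, with a fold enrichment from 6.82 to 8.92. Weaker summits were not kept, and the *Cct5* peaks at P13 were 1894 and 1914 bp wide. Whether the peaks of those 5 libraries also covered the start was not tested.

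**Figure D5:**
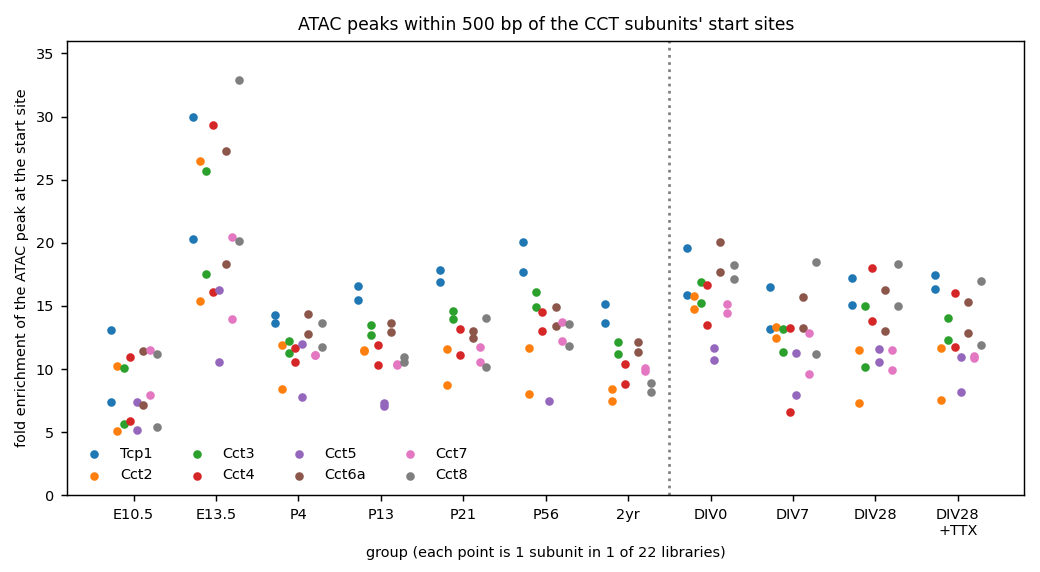
Fold enrichment of the ATAC peak with its strongest summit within 500 bp of each subunit's start site, 1 point for each subunit and library that had one, by group. The points of E13.5 reach 32.9 and those of E10.5 start at 5.09, and *Cct5* has no point at P21 and at 2 years.

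Several subunits share their start region with a neighbour. A protein-coding gene starts on the other strand within 1000 bp for 5 of the 8, against 12.5% of 12857 tested coding genes. *Mrpl18*, a gene of the mitochondrial ribosome whose start lies 37 bp from that of *Tcp1*, was also called lower from E13.5 to P21 (-2.84 ± 0.20) and had a difference between tissue and culture of -4.40 ± 0.46. *Atpsckmt*, a methyltransferase gene whose start lies 314 bp from that of *Cct5*, was called in the opposite direction, at 2.11 ± 0.25 from E13.5 to P21 (adjusted p = 4.8e-07 in edgeR's test) and 1.99 ± 0.33 for the difference. *Psph*, beside *Cct6a*, was at 0.99 ± 0.37 and not called, and *Pradc1* (beside *Cct7*) and *Tsacc* (beside *Cct3*) were too low to test. Of the 2 neighbours called, 1 thus moved with its subunit and 1 against it.

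Counts were made without regard to strand, so reads where opposite genes overlap cannot be told apart, which touches *Tcp1* with *Mrpl18* and *Acat3*, *Cct6a* with *Psph*, *Cct7* with *Pradc1* and *Cct8* with *Usp16*. *Acat3* had at most 51.0 normalised counts in a library, *Psph* 70.9 and *Pradc1* 42.2, all below the subunit beside them, while *Usp16* had a mean of 440.2 at E13.5 and of 509.2 at P21. *Tcp1* and *Cct6a* also host small nucleolar RNAs. The pseudogenes *Tcp1-ps1* and *Cct3-ps1* had counts in 0 and 1 of the 28 libraries.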

How the data were processed

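RNA-seq was available for 28 libraries and ATAC-seq for 22, 2 per group. Per the labels and the study's methods, the authors trimmed reads with Trim Galore, aligned RNA reads to mm10 with STAR 2.5.2b and estimated expected counts and TPM per gene with RSEM 1.3.0, without strand; the deposited FPKM were not used. ATAC reads were aligned with BWA and peaks called per library by the authors with MACS2 2.2.7.1, whose deposited lists give fold enrichment (a ratio) and the −log10 p-value and q-value. ATAC read numbers were not used here, so the depth behind a peak is unknown.

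Expected counts were rounded and fitted with edgeR 4.0.16 (R 4.3.3), with TMM scaling and genes kept at a CPM of 5 or more in all replicates of at least 1 group. Fits were made, over 18 tissue libraries, 10 culture libraries and 25 libraries of both without TTX. Genes were called at p under 0.001 and 2-fold. Levels were scaled by median-of-ratios factors over all 28 libraries. The scripts were tested on simulated data. Alternatives were median-of-ratios scaling, no filter, DESeq2 1.42.0, only the compared groups, an adjusted p limit of 0.05, the replicate number as a block, leaving out each replicate, and the mistitled library as titled. Same-numbered DIV28 cultures with and without TTX, grown in parallel according to a note in the study's supplement, deviated together (correlations of 0.559, 0.487 and 0.646 for replicates 1 to 3), so the number pairs them; for other groups the labels share only the number. All 8 subunits were named; of each partner list, the genes with the largest called fall and rise, with *Cct6b*, *Hspd1*, *Hspe1*, *Hsf1*, *Hsf2*, *Actb* and *Tubb3*; and the 10 genes most like the mean of the subunits. The genes beside the subunits were added after their values were seen. Subunits, lists and tests were chosen with earlier results of these data known. Starts came from GENCODE M21, and promoter windows from RefSeq.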

Additional observations from a re-analysis of the deposited data

Results flagged for a closer look

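The change with age in tissue differed from the change with time in culture for each of the 8 CCT subunits, by edgeR's test of the difference itself. The log2 change from E13.5 to P21 minus that from DIV0 to DIV28 was -3.86 for *Cct6a*, -3.76 for *Tcp1*, -3.50 for *Cct5*, -3.34 for *Cct2*, -3.22 for *Cct8*, -3.05 for *Cct7*, -2.63 for *Cct4* and -1.71 for *Cct3*. With P4 as the start in tissue, 3 of 8 were called, and *Cct3* was at -0.019. Blood and vessel transcripts were high in the E13.5 libraries, and vessel transcripts were also present at P4. Mitochondrially encoded mRNAs were higher at E13.5 than at P21 and lower at DIV0 than at DIV28. The part of either in these values was not tested.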

How the results depend on the processing

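Of 167 counts of called CCT subunits under alternatives, 165 were within 1.5 times the reported count. Of 524 called log2 changes, 522 were still called and 0 changed direction; the 2 lost were *Cct4* at DIV28 against P21, at 1.12 with only the compared groups and 0.87 without DIV28 replicate 1. With the replicate number as a block, 1 subunit was called from DIV0 to DIV28 in place of 0, *Cct6a* at 1.03, and the block changed no other call. Leaving out 1 library gave 1 to 2 calls from E10.5 to E13.5. Alternatives chosen after seeing the data moved more: with P4 in place of E13.5, 3 subunits were called lower by P21, 3 differed between tissue and culture, and 0 differed from DIV0, with log2 values of 0.73 (*Tcp1*), 0.57 (*Cct3*), 0.31 (*Cct4*), 0.76 (*Cct5*), 0.21 (*Cct7*) and 0.29 (*Cct8*) in the other direction; the cause was not tested. At start sites, leaving out replicate 1 or 2 gave a peak for 96.6% and 97.7% of pairs, against 97.2%.

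Uncalled values close to 0 changed sign in 44 of 812 cases. From P4 to P13, *Cct7* was at -0.025 with median-of-ratios factors, -0.019 with only the compared groups, -0.029 with DESeq2 and from -0.093 to 0.17 without 1 library, and *Cct3* from -0.00078 to 0.24. From P21 to P56, *Cct8* was at 0.0067 with no filter, 0.015 with only the compared groups and from -0.13 to 0.12 without 1 library, *Cct2* from -0.05 to 0.10, *Cct4* from -0.034 to 0.20, *Cct5* from -0.04 to 0.23 and *Cct6a* from -0.17 to 0.063. From P56 to 2 years, *Cct6a* was at -0.022 with median-of-ratios factors, -0.025 with only the compared groups, -0.023 with DESeq2 and from -0.029 to 0.14 without 1 library. From DIV0 to DIV7, without 1 library, *Tcp1* ran from -0.12 to 0.19, *Cct3* from -0.072 to 0.31 and *Cct4* from -0.098 to 0.52. From DIV7 to DIV28, *Cct5* was at 0.12 with the block, 0.083 with the mistitled library as DIV0 and from -0.41 to 0.24 without 1 library, *Cct7* at 0.0075 with the block and from -0.46 to 0.15, *Cct6a* from -0.015 to 0.39 and *Cct8* from -0.11 to 0.32. From DIV0 to DIV28, *Cct3* was at 0.032 and *Cct5* at 0.073 with that library as DIV0, and *Cct4* from -0.38 to 0.12 without 1 library. With TTX, *Cct8* was at -0.051 with that library as DIV0 and from -0.098 to 0.30 without 1 library, *Cct4* from -0.22 to 0.45 and *Cct7* from -0.031 to 0.43. With 2 or 3 libraries a group and at least 66 expected counts per subunit and library, standard errors in culture were larger than in tissue.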
